A study of Mus musculus with 12 samples.

Results

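The 2-oxoacid dehydrogenases are large mitochondrial enzyme complexes that turn a 2-oxoacid into an acyl-CoA and pass the electrons to NAD. The 9 genes described here, Pdha1, Pdhb, Dlat, Pdhx, Dld, Ogdh, Ogdhl, Dlst and Dhtkd1, were taken by name and encode the subunits of the pyruvate, 2-oxoglutarate and 2-oxoadipate dehydrogenases. They are 9 of the 43686 rows of the count table, each name matched 1 row, and all 9 passed the filter on low counts that left 17155 rows for the test. The rule names the genes and uses no measured value, although it was written with earlier results of these data known.

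RNA of the ventricular wall of the mouse heart was sequenced after poly-A selection, in 6 WT hearts (littermates with floxed Sdhaf4 alleles, Sdhaf4 fl/fl, and no Cre) and in 6 KO hearts (Sdhaf4 fl/fl with Ckmm-Cre). SDHAF4 is an assembly factor of complex II, the succinate dehydrogenase of the TCA cycle. Ckmm-Cre takes its promoter from the creatine kinase gene of muscle, so that floxed alleles are lost from striated muscle, of the limbs as well as of the heart, and other cell types of the heart, and their RNA in these libraries, still carry the gene. The floxed alleles are shared by both genotypes, while the Cre transgene is carried by the KO mice alone, so that loss of Sdhaf4 and presence of Cre cannot be told apart. The labels give the strain as C57BL/6, the age as 2 months and the genotypes as wild type and Sdhaf4-/-, and the study's own statements of age differ from each other, one of them matching the label. Nothing in the labels says that each library is 1 animal, so the p-values measure the spread between these libraries. A heart stands here for 1 library.

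The libraries held 23747014 to 27159228 counts in WT and 26542930 to 31393393 in KO, and any pair of libraries of one genotype differed by more than counting alone gives (chi-square divided by its degrees of freedom at least 6.99). The targeted gene, Sdhaf4, stood at 25.2 ± 5.8 CPM in WT (counts-per-million after TMM scaling, mean ± SD, n = 6, range 14.29 to 30.29) and at 2.40 ± 0.170 CPM in KO (range 2.252 to 2.73), a log2 fold change of -3.39 (SE 0.16, adjusted p = 1.95e-10 by edgeR's quasi-likelihood test). The ventricular label was checked against markers. Of 10 cardiomyocyte markers 5 fell and 1 rose, with a summed level of 54650 to 60190 CPM in WT and 46910 to 64210 CPM in KO. Of 8 fibroblast markers 8 rose, and their sum was 1420 to 1670 CPM in WT and 2584 to 4867 CPM in KO. The atrial genes Myl7 and Sln were at most 0.2933 CPM in every library. Of 7 skeletal muscle markers 4 were tested, of which 1 rose (Acta1) and 2 fell (Ckm and Tnni2), and the sum of the 7 was 2211 to 2416 CPM in WT and 1828 to 2890 CPM in KO. The skeletal muscle myosins Myh1, Myh2 and Myh4 were at most 2.918 CPM in every library. The other atrial markers, Nppa and Myl4, both rose, Nppa to 7399 to 15650 CPM in KO from 155.8 to 408.2 CPM in WT. Of 6 endothelial markers 3 rose and 1 fell, of 5 smooth muscle and pericyte markers 2 rose and 1 fell, and of 6 macrophage markers 1 rose and 2 fell. In these bulk samples fewer cardiomyocytes and less RNA per cardiomyocyte cannot be told apart, and the part of the shift in cell markers in the results below was not tested.

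Each complex is built from 3 kinds of subunit. The E1 subunit binds thiamine diphosphate and decarboxylates the 2-oxoacid, and so sets which substrate a complex accepts. The E2 subunit carries lipoic acid on a swinging domain and transfers the acyl group to CoA, and the E3 subunit, dihydrolipoamide dehydrogenase, reoxidizes the lipoyl group and is shared by all these complexes. Pyruvate dehydrogenase (PDH) commits pyruvate from glycolysis and lactate to the TCA cycle, and 2-oxoglutarate dehydrogenase (OGDH) works inside the cycle 1 step before the succinyl-CoA ligase that feeds complex II. The heart burns mainly fatty acids and switches PDH off and on by phosphorylation of its E1 alpha subunit.

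The subunits of these complexes did not move together in the KO hearts. Of the 9 genes, 4 fell (Pdha1, Dld, Ogdhl and Dhtkd1), 1 rose (Pdhb) and 4 did not pass the test (Dlat, Pdhx, Ogdh and Dlst). In the same test 25.5% of the 17155 rows fell and 25.6% rose, and the counts of the 9 genes in either direction have to be read against that background. The median log2 fold change was -0.06 over the 9 genes and 0.002 over all rows. The 2 genes past the stricter thresholds of the study (adjusted p under 0.005 and a log2 fold change beyond 1 in size), Ogdhl and Dhtkd1, were both lower, a call made for 4.87% of all rows in that direction, and 0 of the 9 passed them as higher, against 5.36% of all rows. In 3 genes every KO heart was below every WT heart, a pattern found in 15.2% of all rows, and in 1 gene every KO heart was above every WT heart, as in 14.9% of all rows.

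**Figure D1:**
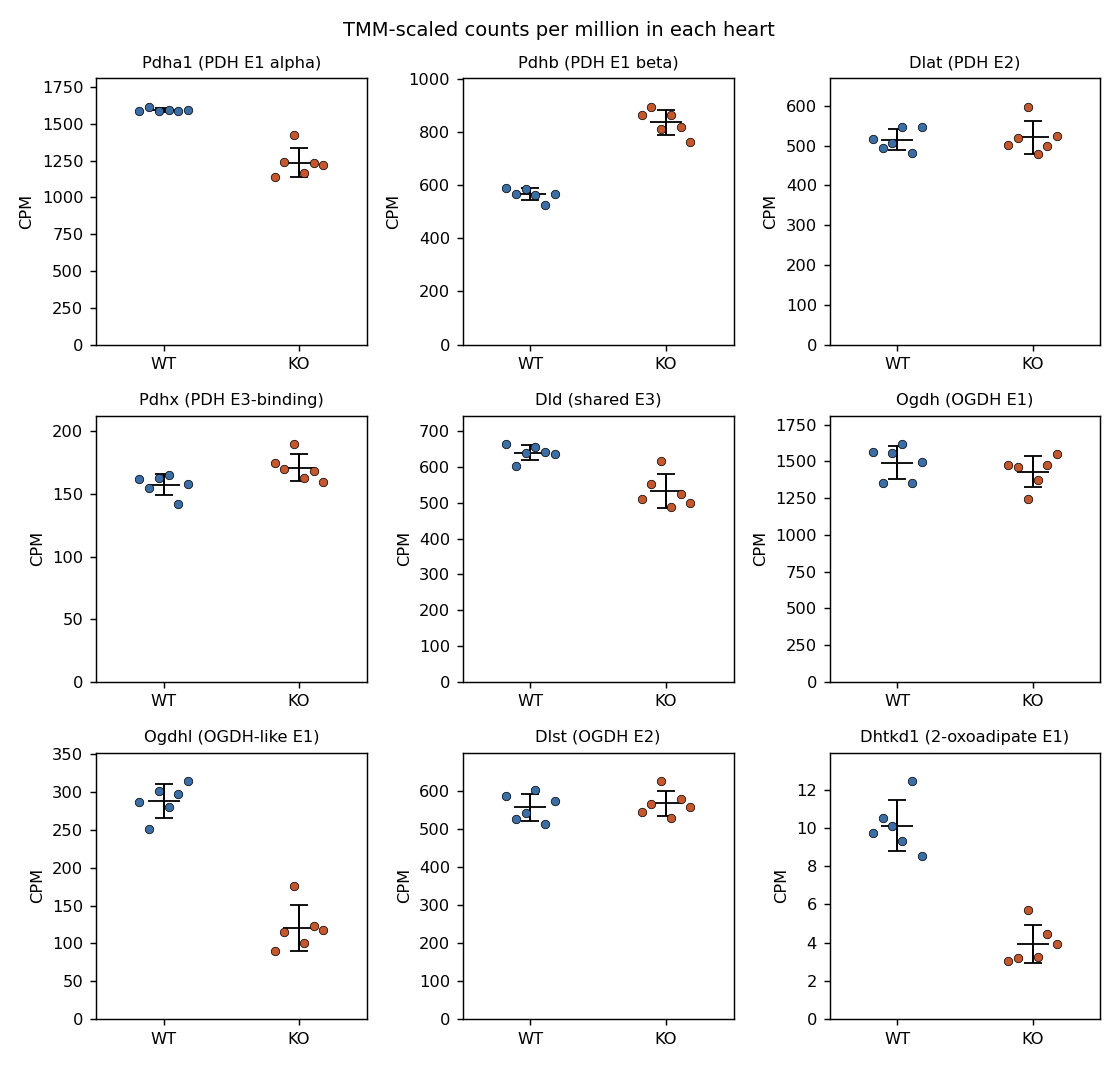
Each panel shows TMM-scaled CPM (y axis, from 0) of 1 gene in the 6 WT and 6 KO hearts (x axis), with each point a heart, the wide line the mean and the bars the SD. Pdhb is higher in all KO hearts, Pdha1, Ogdhl and Dhtkd1 are lower in all of them, and Dlat, Ogdh and Dlst overlap between genotypes.

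KO replicate 3 stood apart in several of these genes and is named here before the results. Its Pdha1 level, 1424 CPM, was above the other KO hearts (1136 to 1239 CPM), and it was the highest KO heart for Pdha1, Dlat, Pdhx, Dld, Ogdhl, Dlst and Dhtkd1 and the lowest for Ogdh. Without it the log2 fold change was -0.416 for Pdha1, -0.320 for Dld, -1.408 for Ogdhl, -1.503 for Dhtkd1 and 0.565 for Pdhb, and all 5 stayed past the threshold.

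The E1 of PDH is a tetramer of alpha and beta chains, made by Pdha1 and Pdhb. These are 2 of the genes in which the genotypes did not overlap, and they moved in opposite directions. Their promoters are shown because the partners of 1 enzyme diverged. The stretches run from 250 to 51 bases before the RefSeq start (build GRCm38.p6), 5′ to 3′ on the strand of the gene, Pdha1 at chrX:160138481-160138680 on the minus strand and Pdhb at chr14:8173043-8173242 on the minus strand, and capitals mark matches to the letters GGGCGG, known as an SP1 box.
Pdha1: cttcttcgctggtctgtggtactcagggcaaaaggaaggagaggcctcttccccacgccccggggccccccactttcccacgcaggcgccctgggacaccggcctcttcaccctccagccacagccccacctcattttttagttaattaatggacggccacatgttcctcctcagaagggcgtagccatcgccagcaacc
Pdhb: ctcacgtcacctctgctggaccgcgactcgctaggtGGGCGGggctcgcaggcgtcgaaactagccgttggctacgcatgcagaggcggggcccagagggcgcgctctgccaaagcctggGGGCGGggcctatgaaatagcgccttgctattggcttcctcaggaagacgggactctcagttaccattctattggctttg
The Pdhb stretch holds 2 SP1 boxes, at -214 and -130 from the start, and the Pdha1 stretch holds none. SP1 boxes were also found in the promoter windows of Dlat, Pdhx, Ogdh and Dlst, which did not pass the test, and of Ogdhl, which fell.

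Pdha1 (chromosome X, 162740585 to 162757354, minus strand, C57BL/6NJ assembly), the E1 alpha chain that carries the serines phosphorylated by the PDH kinases, stood at 1583 to 1613 CPM in WT (median 1590) and 1136 to 1424 CPM in KO (median 1227). All 6 KO hearts lay below the lowest WT heart. The means were 1593 ± 11.2 and 1236 ± 101 CPM (SD, n = 6 each), a log2 fold change of -0.37 (SE 0.057, adjusted p = 4.59e-05), so that the mean fell by 22.4%. The study lists Pdha1 and Ogdhl among TCA cycle genes that were lower in these hearts and in data sets of 2 other heart conditions, and since these hearts entered that choice the list is not independent evidence of direction here. The row shares 1143 bases with Map3k15 on the other strand, and whether counting used the strand is not given in the sources used here. Map3k15 had 26803 counts in all against 460381 for Pdha1 and a log2 fold change of -0.37 (adjusted p = 0.00906). Pdha2, the testis form of E1 alpha, had 1 count in all 12 libraries.

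Pdhb (chromosome 14, 514726 to 521734, minus strand), the E1 beta chain, was the one gene of the 9 that rose. The WT hearts ranged from 527.1 to 590.8 CPM around a median of 566.0, and the KO hearts from 763 to 894.1 CPM around a median of 842.2, with no overlap. The means were 566.8 ± 22.7 and 836.5 ± 47.2 CPM, a log2 fold change of 0.56 (SE 0.052, adjusted p = 1.55e-07), 47.6% higher. KO replicate 3, which lay nearer to WT than the other KO hearts for Pdha1, stood within the other KO hearts for Pdhb at 812.6 CPM.

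The ratio of both E1 transcripts within 1 heart does not depend on how the libraries were scaled. There were 0.332 to 0.373 counts of Pdhb per count of Pdha1 in WT (median 0.354) and 0.571 to 0.761 in the KO hearts (median 0.693). The ratio was 1.91-fold higher in KO (difference of mean log2 ratios 0.93, p = 0.00216 in a two-sided exact permutation test, which is the lowest value that 6 against 6 can reach, adjusted over 8 ratios p = 0.00289). Per length, from the deposited FPKM, the ratio was 0.279 ± 0.0118 in WT and 0.535 ± 0.0582 in KO.

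The core of PDH is made of the E2 subunit, dihydrolipoamide acetyltransferase, from Dlat, and of the E3-binding protein from Pdhx, which resembles E2 and anchors E3. Dlat (chromosome 9, 50911577 to 50940169, minus strand) was at 481.0 to 547.5 CPM in WT (median 511.2) and 479.8 to 596.8 CPM in KO (median 510.5). The ranges overlapped, with KO replicate 3 above every WT heart. Its log2 fold change was 0.01 (SE 0.058, 95% interval -0.11 to 0.14, adjusted p = 0.854), so the data allow a change of either sign within that interval.

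Pdhx (chromosome 2, 108522506 to 108575848, minus strand) was at 141.8 to 165.0 CPM in WT (median 160.1) and 159.3 to 189.8 CPM in KO (median 169.2), and 4 of 6 KO hearts were above the highest WT heart. The log2 fold change was 0.12 (SE 0.052, 95% interval 0.01 to 0.23, adjusted p = 0.068 by edgeR), so it did not pass. Without KO replicate 6 it did (0.135, adjusted p = 0.0419). The ratio of Pdhx to Dlat was 0.289 to 0.321 in WT and 0.304 to 0.349 in KO, with overlapping ranges, and was 1.08-fold higher in KO (exact permutation p = 0.0238, adjusted p = 0.0272). That call was lost when WT replicate 5 or 6 or KO replicate 1 or 4 was left out, with adjusted p between 0.0519 and 0.0569 in the exact test.

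Within PDH, the E2 transcript therefore rose relative to E1 alpha. There were 0.303 to 0.343 counts of Dlat per count of Pdha1 in WT (median 0.323) and 0.404 to 0.441 in the KO hearts (median 0.419). The genotypes did not overlap, and the ratio was 1.3-fold higher in KO (exact permutation p = 0.00216, adjusted p = 0.00289).

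Dld (chromosome 12, 30172260 to 30194259, minus strand) encodes E3, the flavoprotein that PDH, OGDH, the branched-chain ketoacid dehydrogenase and the glycine cleavage system have in common. It was at 603.8 to 663.7 CPM in WT (median 640.0) and 486.8 to 617.3 CPM in KO (median 517.8). KO replicate 3 was the one KO heart inside the WT range, and the other 5 were below it. The means were 640.1 ± 20.7 and 531.8 ± 47.4 CPM, a log2 fold change of -0.27 (SE 0.059, adjusted p = 0.00104), so that the mean fell by 16.9%. Dld also fell relative to both E2 genes, with no overlap between genotypes. Dld per Dlat was 1.16 to 1.33 in WT and 0.953 to 1.06 in KO, 0.821 times the WT ratio, and Dld per Dlst was 1.09 to 1.26 in WT and 0.897 to 0.989 in KO, 0.814 times the WT ratio (exact permutation p = 0.00216 and adjusted p = 0.00289 for each).

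**Figure D2:**
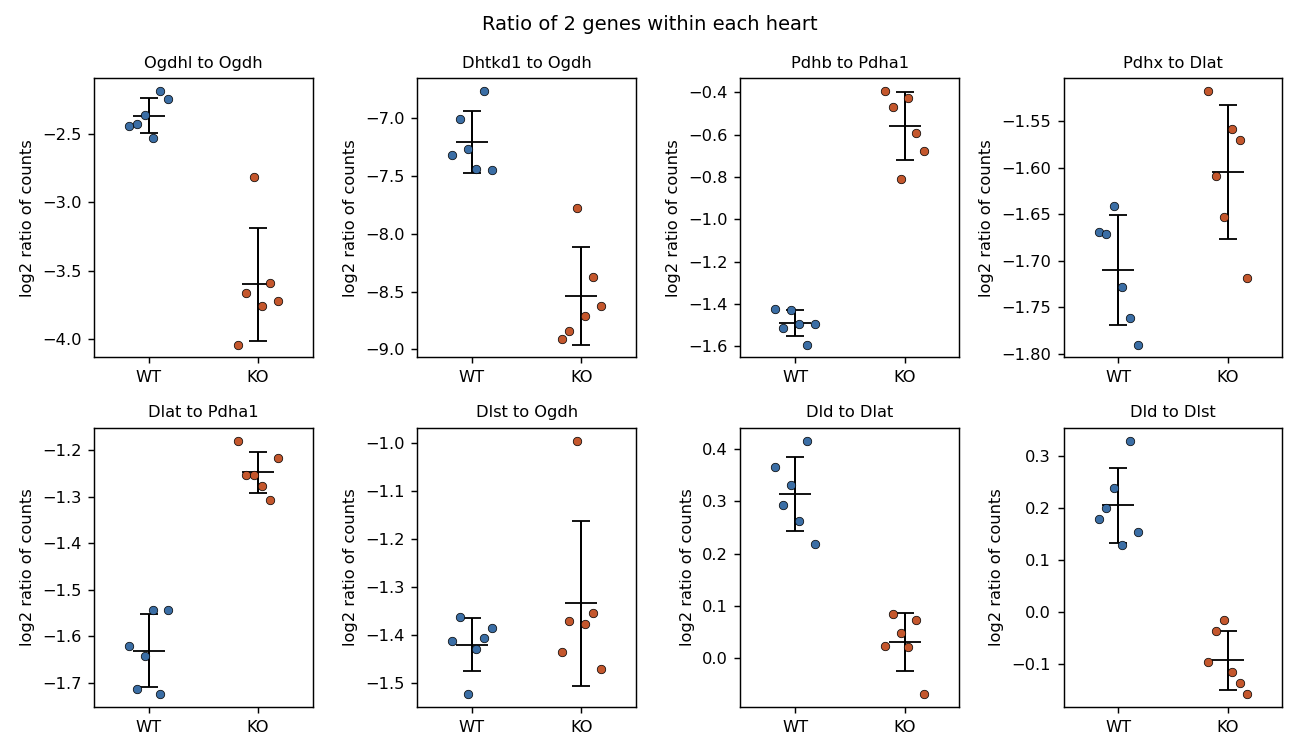
Each panel shows the log2 ratio of the counts of 2 genes within a heart (y axis) in the 6 WT and 6 KO hearts (x axis), with points for hearts, wide lines for means and bars for SD. In 6 of the 8 panels the genotypes do not overlap, and Pdhx to Dlat and Dlst to Ogdh are those that do.

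In OGDH the genes of the common E1 and of E2 did not pass the test. Ogdh (chromosome 11, 3495594 to 3565583, plus strand), the main E1 of the 2-oxoglutarate complex, was at 1352 to 1617 CPM in WT (median 1525) and 1245 to 1547 CPM in KO (median 1466). Its ranges overlapped, and the log2 fold change was -0.06 (SE 0.066, 95% interval -0.20 to 0.08, adjusted p = 0.472). Dlst (chromosome 12, 88340968 to 88366782, plus strand), the succinyltransferase E2, was at 511.1 to 600.3 CPM in WT (median 556.8) and 527.6 to 624.4 CPM in KO (median 561.3). It too overlapped between genotypes, with a log2 fold change of 0.03 (SE 0.056, 95% interval -0.09 to 0.15, adjusted p = 0.729). The ratio of Dlst to Ogdh was 0.348 to 0.389 in WT and 0.361 to 0.501 in KO, with p = 0.294 in the exact permutation test, and its highest value was that of KO replicate 3. The difference of the mean log2 ratios was 0.09 with KO replicate 3 and 0.019 without it.

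Both genes for alternative E1 subunits fell by more than a factor of 2. OGDHL is a close relative of OGDH with its own pattern over tissues, and DHTKD1 is the E1 that prefers 2-oxoadipate, a product of lysine and tryptophan breakdown. Their promoters are printed because they fell most of the 9. The stretches again run from -250 to -51, Ogdhl at chr14:32321769-32321968 on the plus strand and Dhtkd1 at chr2:5942843-5943042 on the minus strand (GRCm38.p6), with an SP1 box in capitals.
Ogdhl: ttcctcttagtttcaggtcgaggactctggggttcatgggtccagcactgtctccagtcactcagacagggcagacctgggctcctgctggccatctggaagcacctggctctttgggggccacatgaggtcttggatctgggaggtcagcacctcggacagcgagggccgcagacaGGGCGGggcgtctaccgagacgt
Dhtkd1: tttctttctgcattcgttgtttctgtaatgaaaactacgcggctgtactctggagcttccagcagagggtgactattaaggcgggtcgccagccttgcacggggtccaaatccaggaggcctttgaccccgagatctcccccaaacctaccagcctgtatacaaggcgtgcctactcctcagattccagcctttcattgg
Both genes also hold an E-box, CACGTG, outside the stretch shown, with its first base at -5 in Ogdhl and at 17 after the start in Dhtkd1. Ogdh, which did not pass the test, holds an E-box too.

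Ogdhl (chromosome 14, 26590505 to 26616394, plus strand) was at 250.9 to 314.6 CPM in WT (median 292.3) and 89.68 to 176.6 CPM in KO (median 116.2). All 6 KO hearts were below the lowest WT heart, and KO replicate 3 was nearest to WT. The means were 288.6 ± 22 and 120.4 ± 30 CPM, a log2 fold change of -1.26 (SE 0.133, adjusted p = 3.45e-06), 0.417 times the WT level. Relative to Ogdh in the same heart there were 0.173 to 0.220 counts of Ogdhl per count of Ogdh in the WT hearts (median 0.190) and 0.0609 to 0.142 in the KO hearts (median 0.0774), a difference of mean log2 ratios of -1.23 (exact permutation p = 0.00216, adjusted p = 0.00289).

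Dhtkd1 (chromosome 2, 3107645 to 3165001, minus strand) was the least abundant of the 9, with 85 to 308 counts per library, so its values carry more counting error than the others. It was at 8.56 to 12.46 CPM in WT (median 9.94) and 3.052 to 5.695 CPM in KO (median 3.597), without overlap. The means were 10.12 ± 1.33 and 3.932 ± 1.02 CPM, a log2 fold change of -1.36 (SE 0.15, adjusted p = 1.08e-06), 0.389 times the WT level. A row on the other strand shares 3902 bases with Dhtkd1 and had 14 counts in all, against 2238 for Dhtkd1. The ratio of Dhtkd1 to Ogdh was 0.398 times that of WT (exact permutation p = 0.00216, adjusted p = 0.00289).

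Taking the 3 E1 genes Ogdh, Ogdhl and Dhtkd1 together by FPKM (reads scaled by gene length and library size), Ogdh made up 87.1 ± 1.02% of their sum in WT and 93.9 ± 1.86% in KO. Ogdhl made up 12.5 ± 0.971% in WT and 5.89 ± 1.8% in KO, and Dhtkd1 0.474 ± 0.0904% and 0.207 ± 0.0638%. The ranges of all 3 shares did not overlap between genotypes. These are shares of transcript level per length and not of protein. Their size depends on the gene length used. The length behind the FPKM was 2646 bases for Ogdh, against 4127 listed, and 3593 for Ogdhl, against 3737 listed. Shares with the listed lengths would differ.

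**Figure D3:**
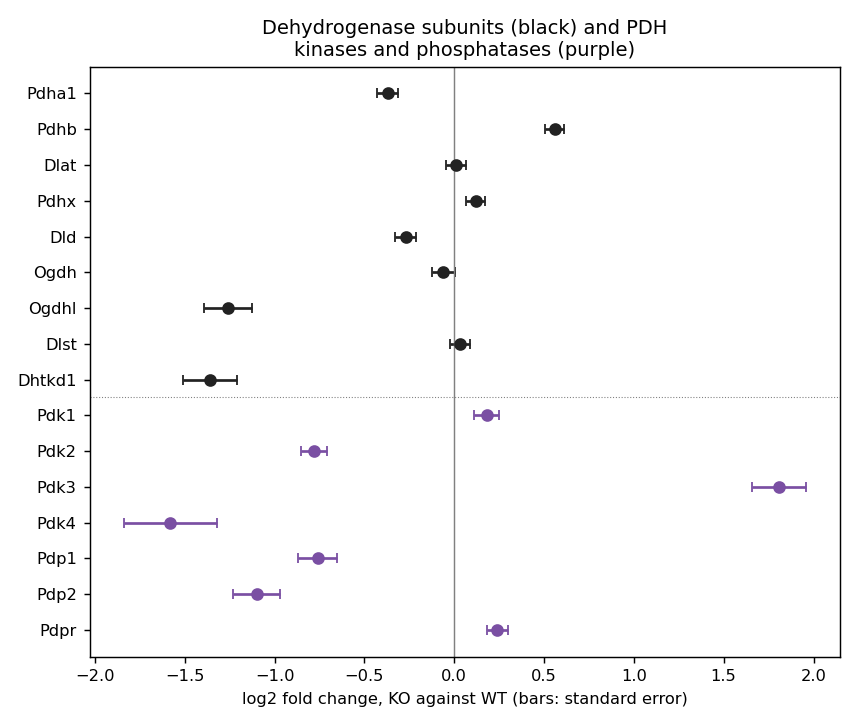
Points are log2 fold changes of KO against WT hearts (x axis) from the test across all rows and bars are standard errors, for the 9 dehydrogenase genes in black and the PDH kinases and phosphatases in purple (y axis). Pdha1 and Pdhb lie on opposite sides of 0, Ogdhl and Dhtkd1 lie beyond -1, and among the regulators Pdk3 lies farthest to the right and Pdk4 farthest to the left.

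Levels can be compared between genes per length. In WT hearts Pdha1 had the highest mean FPKM, 1365 ± 34.6, followed by Ogdh (562.0 ± 41.1), Dlat (437.5 ± 27.6), Pdhb (381.3 ± 18.3), Dld (285.2 ± 7.98) and Dlst (200.8 ± 13.8). Pdhx (90.26 ± 5.34) and Ogdhl (80.22 ± 6.25) came next, and their ranges overlapped, with Pdhx above Ogdhl in 5 of 6 hearts, and Dhtkd1 came last at 3.03 ± 0.365. Every other pair of neighbours kept its order in 6 of 6 WT hearts without overlap.

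In KO hearts Pdhb had moved up to the second place with 563.7 ± 42.8 FPKM, behind Pdha1 at 1058 ± 64.8 and beside Ogdh at 540.1 ± 44.7, above which it stood in 4 of 6 hearts. Ogdh was above Dlat (441.7 ± 24.0) in 5 of 6 hearts. The order below was unchanged, with Dld at 237.0 ± 17.2, Dlst at 204.4 ± 8.4, Pdhx at 98.04 ± 5.38, Ogdhl at 33.36 ± 7.51 and Dhtkd1 at 1.175 ± 0.278 FPKM, and Pdhx was now above Ogdhl in 6 of 6 hearts.

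These orders depend on the gene length used. For 6 of the 9 genes the length behind the deposited FPKM was shorter than the length listed in the same table, for Pdha1 1166 against 2848 bases and for Dlat 1176 against 4035 bases. With the listed lengths Pdha1 was still first in WT (558.7 CPM per kilobase), followed by Pdhb (381.3) and Ogdh (360.3), whereas in KO Pdhb (563.7) was above Pdha1 (433.3) in 6 of 6 hearts. The lengths change no comparison of a gene, or of a ratio, between genotypes.

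**Figure D4:**
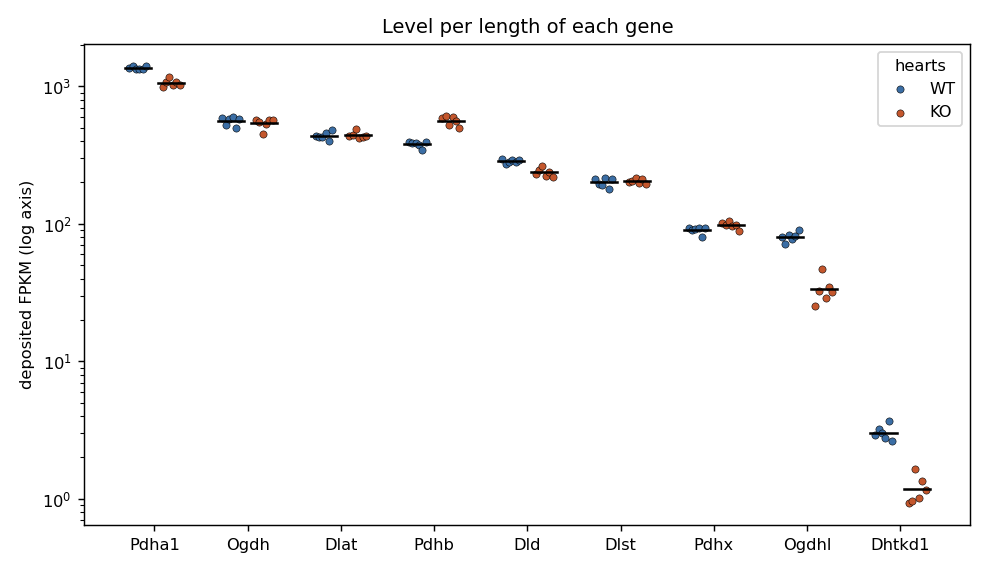
Deposited FPKM on a log axis (y) for each of the 9 genes (x, in the order of the WT means), with 1 point per heart and a line at the mean, WT and KO side by side. The WT means run from 1365 for Pdha1 to 3.03 for Dhtkd1, and Pdhb lies above its WT values in every KO heart.

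The genes that switch PDH were examined as a list of 7 kinases and phosphatases, all tested, of which 3 rose and 4 fell (median log2 fold change -0.76). Pdk4, the kinase that is induced by fatty acids and fasting and inactivates E1 alpha, fell from 5442 ± 632 to 1821 ± 847 CPM (log2 fold change -1.58, SE 0.26, adjusted p = 0.000362). WT hearts lay between 4825 and 6472 CPM and KO hearts between 1126 and 3192 CPM. Pdk3, a kinase of low level in these hearts, rose from 2.70 to 9.47 CPM (1.81, SE 0.15, adjusted p = 4.05e-08), and Pdp2, a phosphatase that reactivates E1 alpha, fell from 18.01 to 8.396 CPM (-1.10, SE 0.13, adjusted p = 2.34e-06). Kinases and phosphatases thus both had members that fell.

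The complexes that share E3 with PDH and OGDH were taken next. All 5 genes of the branched-chain ketoacid dehydrogenase list fell (median -1.50), among them its E2 gene Dbt, from 120.4 to 41.3 CPM (-1.54, adjusted p = 3.47e-11), its E1 beta gene Bckdhb (-1.50) and its phosphatase gene Ppm1k (-1.69). In the glycine cleavage list 2 of 3 genes fell, Gcsh, which carries the lipoyl group (-0.42, adjusted p = 8.54e-06), and Amt (-0.53, adjusted p = 0.0215). In the KO hearts Dbt lay between 36.36 and 47.02 CPM and in the WT hearts between 109.7 and 128.9 CPM, without overlap.

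E2 and Pdhx have to be given lipoic acid. Its octanoyl precursor is built on the acyl carrier protein, and lipoyl synthase is an iron-sulfur enzyme. Of 9 genes listed for lipoic acid attachment 8 were tested, and 6 fell and 1 rose (median -0.43). The octanoyl transferase gene Lipt2 fell by 0.69, the enoyl reductase gene Mecr by 0.52 and the acyl carrier protein gene Ndufab1 by 0.50 on the log2 scale, while Lias, the lipoyl synthase, rose by 0.15 (adjusted p = 0.0287). Of 9 iron-sulfur factors 5 fell and 0 rose (median -0.14), led by the cysteine desulfurase Nfs1 (-0.56), Iba57 (-0.32) and Nfu1 (-0.29).

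Genes for the entry of pyruvate and for cofactors were counted next. Both genes of the mitochondrial pyruvate carrier fell, Mpc2 from 366.5 to 275.4 CPM (-0.41, adjusted p = 3.96e-06) and Mpc1 from 451.5 to 398.7 CPM (-0.18, adjusted p = 0.0365). Of 4 genes of thiamine supply 1 fell, the transporter Slc19a3, from 2.24 to 0.359 CPM (-2.63, adjusted p = 2.71e-05). Slc19a3 had 400 counts in all, so its fold change carries much counting error. Of 9 genes of CoA and FAD supply 5 fell, among them the mitochondrial CoA carrier Slc25a42 (-1.05), the pantothenate kinase Pank1 (-0.90) and Coasy, the last enzyme of CoA synthesis (-0.65).

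Around OGDH, the other genes of the cycle were counted. Of 15 other genes of the TCA cycle 12 fell and 0 rose (median -0.43), led by Idh2 (-0.83), which makes 2-oxoglutarate, Fh1 (-0.74) and Suclg2 (-0.68). Mrps36, the adaptor that holds E3 to the OGDH core, fell from 82.2 to 61.6 CPM (-0.42, adjusted p = 1.08e-05). On the route from lysine to 2-oxoadipate and beyond, 4 of 6 genes were tested and 3 fell, among them Gcdh, the dehydrogenase that takes the product of the DHTKD1 complex (-1.42, adjusted p = 2.5e-11), and Aldh7a1 (-0.59). All of these counts stand against the 25.5% of rows that fell in the whole test, and a difference between any list and the 9 genes was not tested.

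**Figure D5:**
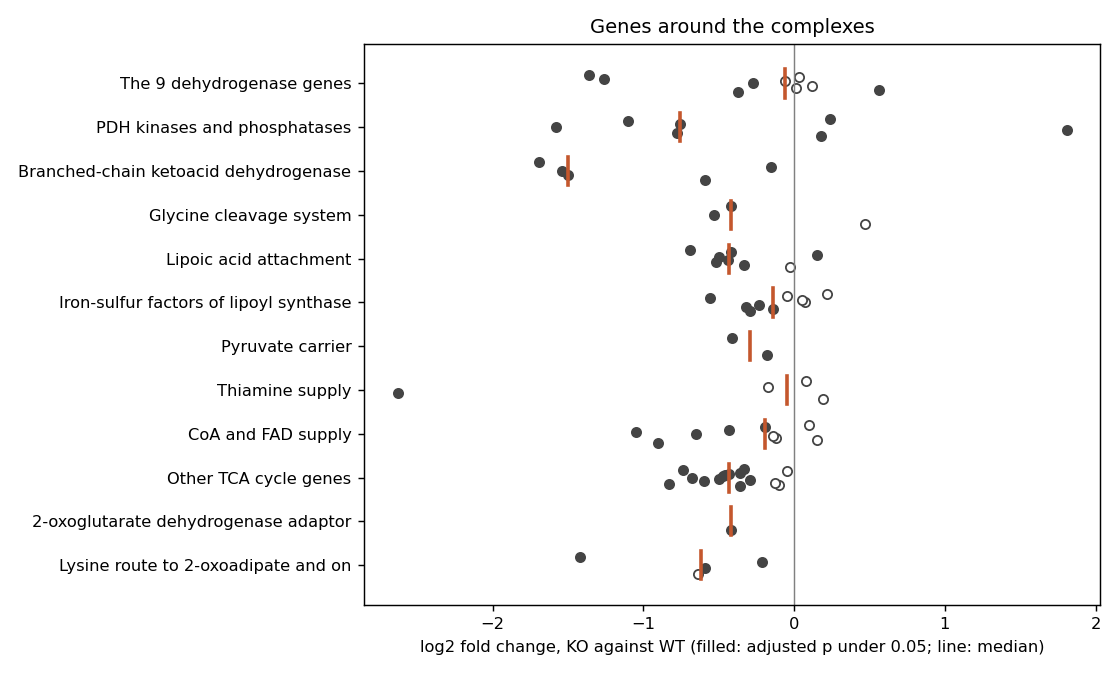
Each point is the log2 fold change of a gene in KO against WT hearts (x axis), in rows for the 9 dehydrogenase genes and the lists around them (y axis), filled where the adjusted p was under 0.05, with an orange line at the median of each row. The 9 genes spread from -1.36 to 0.56 around a median of -0.06, and the branched-chain ketoacid dehydrogenase list lies at a median of -1.50.

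The direction of the moderate changes depended on what the libraries were scaled to. In 1 alternative the libraries were scaled to 85 nuclear genes chosen by name for respiratory complexes I, III, IV and V. Such names can include assembly factors of complex I as well as subunits. This scaling lifted the median of all rows to 0.384. Pdha1 then had a log2 fold change of 0.012 and Dld of 0.111, neither past the threshold. Ogdhl (-0.892) and Dhtkd1 (-0.984) stayed lower and Pdhb (0.944) higher. Measured from that shifted median, Pdha1 and Dld were still below the typical row. The 4 genes that did not pass the main test were called higher under this scaling: Pdhx (0.497), Dlst (0.403), Dlat (0.390) and Ogdh (0.324). So were most rows, since 86.1% of all calls were higher. Against the median of 0.384, Ogdh was below the typical row, Dlat and Dlst were close to it and Pdhx was above it. With scaling to the 10 cardiomyocyte markers (median of all rows 0.196) Pdha1 stayed lower (-0.181, adjusted p = 0.0163) and Dld did not pass (-0.081, adjusted p = 0.304). There Pdhx (0.311), Dlst (0.217) and Dlat (0.202) were called higher, and Ogdh (0.144) did not pass. Against the median of 0.196, Dlst and Dlat were close to the typical row and Ogdh was below it. The ratios of 2 genes within a heart are the same under every scaling.

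Among hearts of the same genotype some of these transcripts varied together. After the mean of each genotype was subtracted from log2 CPM, the E2 genes Dlat and Dlst had a Pearson r of 0.87 over the 12 hearts (Spearman rho 0.867) and of 0.816 without KO replicate 3. Pdha1 and Ogdhl had r = 0.913 (rho 0.441), which was 0.703 without KO replicate 3, so part of it rests on that heart. Pdha1 and Pdhb, the partners of 1 enzyme, had r = -0.282 (rho -0.154). These values are descriptions, since all genes share the same libraries and their depth.

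The gene most like each of the 9 was sought in the same way among 10043 named rows with a mean of at least 5 CPM. For Pdha1 it was Maob (r = 0.973, rho 0.811), for Ogdhl Ivd (r = 0.957, rho 0.804), for Dhtkd1 Eci2 (r = 0.966, rho 0.881) and for Pdhb Hif1a (r = 0.893, rho 0.86). For Dld it was Hspa9 (r = 0.933, rho 0.916), for Dlat Sgcb (r = 0.938, rho 0.734) and for Pdhx Tomm40l (r = 0.913, rho 0.916). For Ogdh it was Lama5 (r = 0.942, rho 0.916) and for Dlst Alpk2 (r = 0.946, rho 0.937). Without KO replicate 3 the r of these pairs ran from 0.823, for Dld with Hspa9, to 0.93. None of the nearest genes was another of the 9. Each is the highest of many values, and nothing about shared control follows from it.

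All 9 genes were found among the 32851 RefSeq promoters (GRCm38.p6, 250 bases before to 50 after the start), with 6 starts listed for Ogdh. Motifs were searched as exact letters on both strands. A gene was counted if any of its starts held the motif, while the shares are over single promoters, so Ogdh had 6 chances. The SP1 box GGGCGG was present in 6 of the 9, Pdhb, Dlat, Pdhx, Ogdh, Ogdhl and Dlst, and in 35.7% of all promoters. The E-box CACGTG was present in 3, Ogdh, Ogdhl and Dhtkd1, and in 7.15% of all. The half-site of the estrogen-related receptors, AAGGTCA, occurred in 1, Ogdh at 1 of its starts, against 4.72% of all, and the NRF1 motif in 1, Dld, against 6.23%. The ETS and GABP motif CCGGAAGT occurred in 1, Dlst, against 3.89%, and the YY1 motif AAGATGGCG in 0 of the 9, against 1.4%. Pdha1 held none of the 6 motifs. A match is a string of letters in a window and not a binding site, and these windows come from another assembly than the counts.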

How the data were processed

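Ventricular RNA for the 6 WT and 6 KO libraries was purified on poly-T beads and prepared with the TruSeq kit. The authors deposited raw read counts per gene made with HTSeq, and the submitters' processing notes name HISAT2 2.0.5 and mm10, whereas identifiers and coordinates in the table are of the C57BL/6NJ assembly. The FPKM values per library were deposited by the authors too. Not used were the authors' group means (FPKM, and counts scaled by size factors, a signal) and the columns of their own DESeq comparison, which hold log2 fold changes with raw and adjusted p-values. Groups and replicate numbers were taken from the sample labels, and strand use in counting is not given in the sources used here.

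Low counts were removed with filterByExpr of edgeR 4.0.16 (R 4.3.3), libraries were scaled by TMM, and genotypes were compared by edgeR's robust quasi-likelihood test. P-values were adjusted by Benjamini-Hochberg over the 17155 rows tested, with a threshold of 0.05, and each standard error was derived from a row's fold change and F value. Ratios of 2 genes within a library were compared by two-sided exact permutation over 924 splits, adjusted over 8 ratios. The library totals, at least 23747014 counts, give small counting errors for the 9 genes except Dhtkd1. Slc19a3, Amt, Lipt2 and Pdk3 held 400, 1047, 1728 and 2073 counts in all, fewer than the 2238 of Dhtkd1. Alternatives were other scalings, filters and tests (DESeq2 1.42.0, limma-voom from limma 3.58.1), the replicate block and each library left out. On simulated counts for 16964 genes edgeR recovered 97 of 100 genes changed by 1 on the log2 scale and 82 of 100 changed by 0.5, with 6 false calls. The simulation changed 200 genes, against 4391 rows called higher and 4376 lower in the data. Its figures therefore do not describe the test at the larger share of called rows. From each list the up to 3 called genes with the largest change are named, and beside them Mpc1, Lias, Pdha2, Map3k15 and the markers given. The 9 genes, the lists and the tests were chosen with earlier results of these data known. A planned protein comparison was not run.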

Additional observations from a re-analysis of the deposited data

Results flagged for a closer look

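In each genotype the 6 values of every gene and ratio were searched for 1 value far from the rest (the gap to its nearest neighbour over the whole range, Dixon's test). Of 34 groups 3 were picked out, where chance at 1 in 20 gives 1.7, and all 3 come from KO replicate 3. Its Pdha1 level was 1424 CPM against 1136 to 1239 CPM in the other KO hearts. Its log2 ratio of Ogdhl to Ogdh was -2.818 against -4.038 to -3.591, nearer to the WT hearts. Its log2 ratio of Dlst to Ogdh was -0.996 against -1.471 to -1.354, above all other hearts of either genotype. For Pdhb the same heart lay inside the other KO hearts, at 812.6 CPM against 763 to 894.1 CPM.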

How the results depend on the processing

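Of 336 fold changes and ratios of the 9 genes set beside an alternative, 315 kept their direction and their side of the threshold, and 8 reversed. Ogdhl, Dhtkd1 and Pdhb kept theirs under all alternatives run, with 1 library left out ranging from -1.408 to -1.189, from -1.503 to -1.296 and from 0.535 to 0.583. Scaling to the respiratory genes reversed Pdha1 (0.012), Dld (0.111) and Ogdh (0.324), and left 2 of the 9 genes lower and 5 higher. It gave 9847 rows higher and 1594 lower (1874 and 487 past both thresholds), against 4391 and 4376 (919 and 836). Under it 86.1% of calls were higher. Scaling to cardiomyocyte markers reversed Ogdh (0.144), left 4 of the 9 genes higher and 2228 rows lower, with 73.6% of calls higher. Dlat reversed without WT replicate 5 (-0.010) or KO replicate 3 (-0.034), in a range of -0.034 to 0.038 over the libraries left out, and Dlst likewise (-0.003 and -0.009, range -0.009 to 0.047), none past the threshold. With each library left out, 4 genes stayed lower and 1 to 2 were higher (2 without KO replicate 6), and the ratio of Pdhx to Dlat ranged from 0.088 to 0.128. No pairing of the hearts by replicate number was seen (correlation of deviations -0.162 to 0.0243, and 1 of 12 libraries correlated best with its own number). These values cannot exclude a pairing. With the replicate number as a block the ratio of Pdhx to Dlat was 0.105 (exact sign-flip test, adjusted p = 0.0714), and no other call of the 9 genes changed. Levels per length moved with the listed gene lengths for Pdha1, Dlat, Pdhx, Ogdh and Dhtkd1. Among the 9 genes depth limits Dhtkd1 most, and the intervals of Dlat, Ogdh and Dlst allow a change of either sign.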
